A study of Caenorhabditis elegans with 36 samples.

Results

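Total small RNA libraries from whole simr-1 adults were compared with those from wild-type adults. The 6 libraries were chosen as the inputs of these 2 genotypes, 3 of each, out of 36 libraries in the series. The series paired input libraries with immunoprecipitates of the Argonaute HRDE-1 in 6 genotypes of Caenorhabditis elegans, and an input is the part of the cleared lysate set aside before the antibody was added. About 100000 synchronized animals per sample were grown at 20 °C for 68 h and collected as 1-day-old adults, and small RNAs of 18 to 30 nt were cloned after a polyphosphatase treatment that lets triphosphorylated 22G-RNAs enter the library. All strains carried the tagged allele hrde-1(tor125[GFP::3xFLAG::hrde-1]) on chromosome III, so the wild-type (strain JMC231) is wild-type for every other gene named here but not untagged. The simr-1 strain USC1464 added simr-1 (cmp36) I. Input libraries of 4 further genotypes were used beside the main comparison: mut-2(ne298) I, simr-1(cmp36) together with mut-2(cmp306), hrde-2/enri-3(qe20) V, and the mut-2; hrde-2 double of ne298 and qe20, each with the same tagged hrde-1. The mut-2 allele of the simr-1 mut-2 strain differs from that of the mut-2 strain. Per the study's methods, the 3 replicates of a strain were biological, each with its own growth of animals and its own library. The whole animal was sampled, so fewer cells of a type and less small RNA per cell cannot be told apart.

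In C. elegans, primary small RNAs such as piRNAs recruit RNA-dependent RNA polymerases to target transcripts, and the polymerases make secondary 22G-RNAs antisense to those transcripts. One class of 22G-RNAs is bound by the WAGO Argonautes, to which HRDE-1 belongs, and silences its targets. Its synthesis depends on the mutator complex, which includes the nucleotidyltransferase MUT-2. A second class is bound by CSR-1 and targets expressed germline genes. SIMR-1 is a Tudor domain protein of a perinuclear germ granule, known for acting between piRNA target recognition and 22G-RNA synthesis. Each value below is the number of small RNAs overlapping the exons of an annotated gene, on either strand, scaled to 1000000 counts on all genes of that library (RPM). A gene that rises or falls is therefore a target with more or fewer small RNAs, not a transcript with more or fewer copies. Counting did not use strand, so small RNAs from a gene and from an antisense partner cannot be told apart.

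The wild-type inputs held 9711456, 8857632 and 6652279 counts on genes, and the simr-1 inputs 10306745, 9430908 and 7975992. Pieces of structural RNAs took 14.8 to 23.8% of counts in the wild-type inputs and 14.8 to 25.3% in the simr-1 inputs. Replicates of a group had Spearman correlations of 0.954 to 0.983 across genes, and every pair differed by more than sampling noise.

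The simr-1 gene itself (WBGene00015504, chrI:5981778-5985869, WBcel235) was looked at first. It stood at 136.2, 179 and 132 RPM across the wild-type inputs against 35.8, 30.9 and 29.8 RPM across the simr-1 inputs. All simr-1 libraries were below all wild-type libraries, a log2 change of -2.14 ± 0.13 (SE, adjusted p = 3.6e-05) in edgeR's quasi-likelihood test. The sequence change in cmp36 was not used here, so the value checks the labels only through small RNAs on simr-1. The tagged hrde-1 gene stood at 315, 428 and 304 RPM across the wild-type inputs against 314, 343 and 302 RPM across the simr-1 inputs. The groups overlapped, and the log2 fold change was -0.051 ± 0.14 (SE, adjusted p = 0.85).

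Small RNAs were lost from many genes and gained on few. Of 13642 genes tested, out of 31106 in the tables, 1001 (7.34%) were lower and 145 (1.06%) were higher in the simr-1 inputs, 8.4% together. A gene was called when it changed by at least 2-fold with an adjusted p of at most 0.05 (Benjamini-Hochberg over all genes tested) and its group with the higher mean reached 10 RPM. The RPM of the groups did not overlap for all 1001 lower genes and for 144 of the 145 higher genes. Calls and overlap come from the same libraries, so this is not further evidence. Of the 11297 tested protein-coding genes, called or not, 3319 had groups that did not overlap. The change reached 4-fold for 345 lower and 53 higher genes, and 8-fold for 69 lower and 27 higher genes. Across all tested genes the median log2 fold change was 0.07. The plot of each gene's level in the 2 groups shows the lower genes as a broad band under the diagonal and the higher genes as a thin scatter above it.

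**Figure D1:**
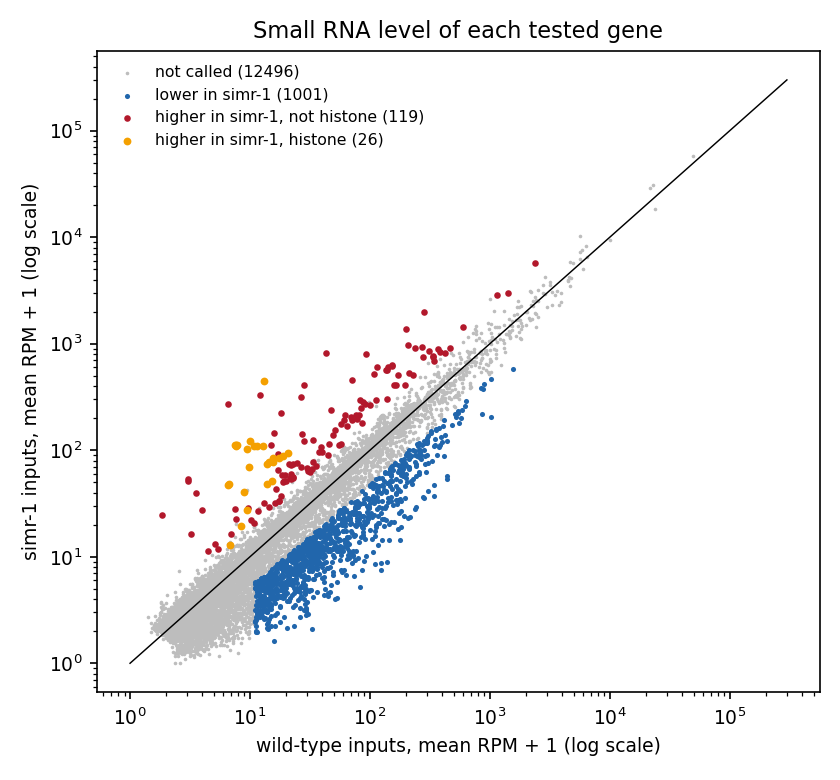
Mean RPM of each tested gene in the 3 wild-type inputs (x axis) and the 3 simr-1 inputs (y axis), both as log axes of RPM plus 1, with called genes coloured. The 1001 lower genes lie below the diagonal and the 145 higher genes above it.

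The lower genes carried a modest part of the libraries. Their median level was 35.7 RPM across the wild-type inputs against 10.0 RPM across the simr-1 inputs, against a median of 15.7 RPM across the wild-type inputs for all tested genes. Together they held 8.13, 8.50 and 7.77% of counts in the wild-type inputs and 2.30, 2.83 and 2.40% in the simr-1 inputs. The higher genes held 1.54, 1.60 and 1.45% of counts in the wild-type inputs and 4.08, 5.55 and 4.54% in the simr-1 inputs. These shares describe genes that were chosen on the same libraries. Calls were spread unevenly over levels. Of 6087 genes with a mean of 10 to 100 RPM over the 6 libraries, 677 were lower and 80 higher. Of 115 genes above 1000 RPM, 1 was lower and 5 were higher. Of the 1001 lower genes, 566 had no name beyond that of their sequence.

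The largest falls took genes that were well covered in wild-type to low levels. The largest among genes that met the minimum of 10 RPM in the higher group was M162.15 (WBGene00206535, chrV:19771523-19771724), an uncharacterized protein-coding gene near the right end of chromosome V. It had 41.5, 19.2 and 34.1 RPM across the wild-type inputs against 1.07, 1.17 and 1.003 RPM across the simr-1 inputs, or -4.81 ± 0.39 on the log2 scale (SE, adjusted p = 0.00015). Every simr-1 library was more than 10-fold below every wild-type library. The pseudogene Y73B3A.7 (WBGene00022209, chrX:135793-138075) had 83.8, 63.1 and 99.97 RPM across the wild-type inputs against 4.27, 4.45 and 3.89 RPM across the simr-1 inputs, with a log2 fold change of -4.24 ± 0.26 (SE, adjusted p = 4e-05). F58E1.13 (WBGene00019044, chrII:1694815-1695827) had 86.9, 150.2 and 131 RPM across the wild-type inputs against 6.50, 6.998 and 6.02 RPM across the simr-1 inputs, a log2 change of -4.17 ± 0.22 (SE, adjusted p = 2.4e-05). Neither pair of groups overlapped, and the simr-1 libraries lay close together. The X-linked F16F9.4 (chrX:8459821-8463360) had 147, 134 and 134 RPM and 7.47, 10.9 and 5.27 RPM in the same order of groups, or -4.07 ± 0.22 on the log2 scale (SE, adjusted p = 2.7e-05). The remaining genes among the 10 largest falls were the pseudogene Y37H2B.1, Y37H2A.10, F37D6.4, clec-238, E02H9.9 and nhr-146, with log2 fold changes from -4.50 to -3.92. The plot of the largest changes shows each library. Its 20 genes were picked among called genes whose groups did not overlap, so the lack of overlap there is a condition and not a result.

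**Figure D2:**
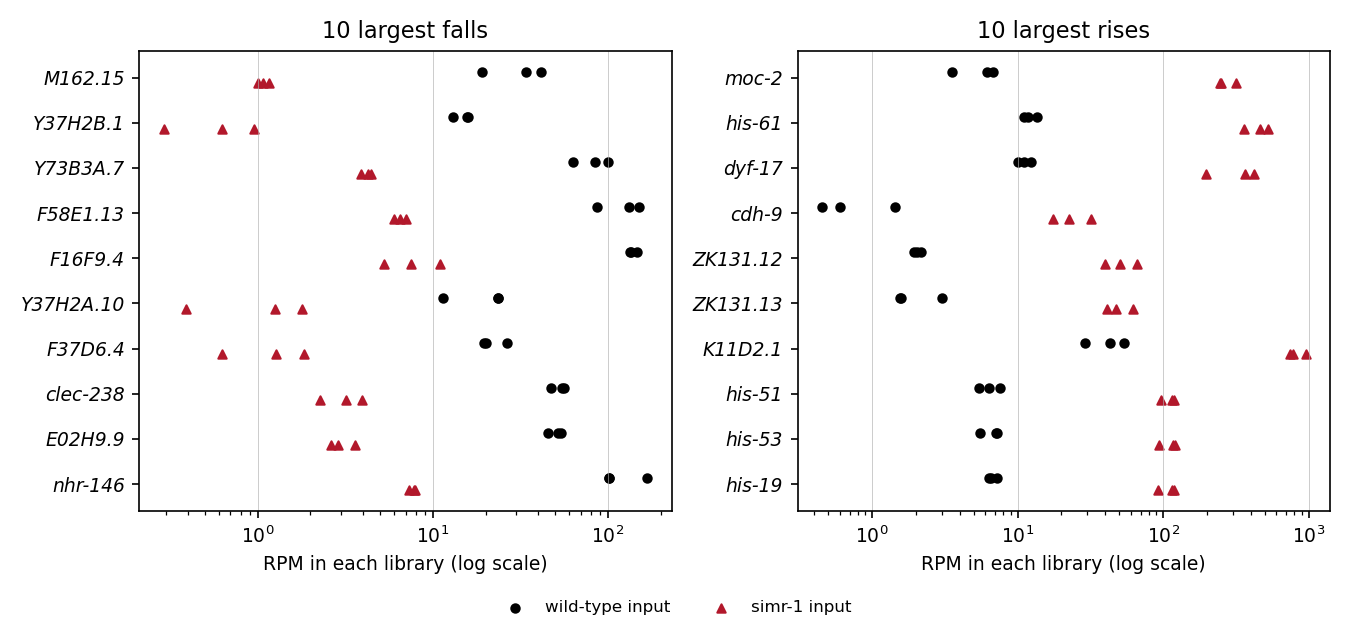
RPM in each input library (log axis) for the 10 genes with the largest falls and the 10 with the largest rises, with wild-type inputs as black circles and simr-1 inputs as red triangles. The simr-1 triangles sit to the left of all circles for each fall and to the right for each rise, which was a condition for being shown.

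The most abundant targets among the lower genes fell by less. F22H10.5 (WBGene00017729), a pseudogene on the X chromosome, stood at 1394, 1852 and 1469.6 RPM across the wild-type inputs against 515, 669 and 539.6 RPM across the simr-1 inputs. All simr-1 libraries were lower, with a log2 fold change of -1.38 ± 0.17 (SE, adjusted p = 0.00085). The F-box gene fbxb-97 (WBGene00016885) went from 889, 1190.5 and 958 RPM to 182, 232 and 204.2 RPM, a log2 change of -2.23 ± 0.17 (SE, adjusted p = 9.7e-05). The gene timm-17B.2, named for the Tim17 subunit of the mitochondrial inner membrane translocase, went from 886, 951 and 805 RPM to 353, 397 and 382 RPM, or -1.15 ± 0.14 on the log2 scale (SE, adjusted p = 0.00077). Here too the groups stood apart, and none of these 3 genes fell to the low levels seen for the largest falls. The pseudogene Y71A12B.18 and the noncoding RNA gene Y77E11A.3 both fell by 1.05 on the log2 scale. Their calls rested on single libraries, since Y71A12B.18 reached -0.91 without simr-1 replicate 1 and Y77E11A.3 reached -0.99 without wild-type replicate 1, both under the 2-fold threshold.

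The F-box families held the highest shares of lower genes among the gene families listed. F-box proteins are substrate adaptors of SCF ubiquitin ligases, and C. elegans has expanded them into large families named fbxa, fbxb and fbxc. Of 113 fbxb genes 77 were tested, and 30 of these (39.0%) were lower and 0 higher, with a median log2 fold change of -1.64 against 0.07 for all tested genes. Of 222 fbxa genes 138 were tested, with 32 lower (23.2%), 4 higher and a median of -0.77. Of 56 fbxc genes 30 were tested, with 8 lower (26.7%), 0 higher and a median of -0.76. These shares stand beside the 7.34% of all tested genes that were lower. Without regard to fold or level, 62 fbxa, 63 fbxb and 16 fbxc genes passed the adjusted p below 0 and 5, 0 and 1 above it, where 15.4% and 2.7% of all tested genes did. The share of all counts on fbxb genes was 0.461, 0.534 and 0.478% in the wild-type inputs and 0.243, 0.325 and 0.249% in the simr-1 inputs. The groups did not overlap, and the exact two-sided permutation test gave p = 0.1, which is the smallest p that 3 against 3 libraries allow (adjusted p = 0.323 over 42 shares).

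Among single F-box genes, fbxb-98 (WBGene00015830) went from 28.2, 29.9 and 27.7 RPM across the wild-type inputs to 1.75, 2.97 and 1.88 RPM across the simr-1 inputs, with a log2 fold change of -3.63 ± 0.22 (SE, adjusted p = 3.9e-05). The gene fbxa-184 went from 65.4, 113 and 98.9 RPM to 6.02, 12.2 and 9.15 RPM, a log2 change of -3.28 ± 0.29 (SE, adjusted p = 0.0002). For fbxc-23 the levels were 115, 94.6 and 100.4 RPM and 21.3, 24.8 and 21.3 RPM, or -2.14 ± 0.14 on the log2 scale (SE, adjusted p = 4.9e-05). In each the groups were well separated. The fbxa family also held the 4 rises among the named families. The pseudogene fbxa-191 (chrV:17637982-17640042) rose from 89.3, 52.4 and 67.5 RPM to 404, 516 and 450.2 RPM, with a log2 fold change of 2.77 ± 0.24 (SE, adjusted p = 0.00019). Its neighbour fbxa-192 rose by 1.13 ± 0.23 (SE, adjusted p = 0.012) on the log2 scale, and fbxa-93 and fbxa-125 by 1.78 and 1.70. Near-identical family members can split or share small RNAs, so values of single members are uncertain.

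Other large families were lower to differing degrees. MATH and BATH proteins, adaptors of CUL-3 ubiquitin ligases, had 9 lower and 0 higher genes of 77 tested (11.7% lower, median -0.43). Nuclear hormone receptors, a class of transcription factors that is expanded in nematodes, had 16 lower and 0 higher of 124 tested (12.9%, median -0.75). C-type lectins had 5 lower and 0 higher of 74 tested (6.76%, median -0.54), a share close to that of all genes. The chemoreceptors of sensory neurons are the largest gene group of the animal, and 1627 were in the tables. Of these 105 had enough counts to be tested, and 15 (14.3%) were lower and 0 higher, with a median of -1.70. At any fold or level 65 of the 105 passed the adjusted p below 0. A gene can have enough counts for a test through the wild-type inputs alone, or through the simr-1 inputs alone. Chemoreceptors that pass only through the wild-type inputs can make this median and these counts lean toward falls. They describe the tested members only, and the same holds for the other families. The share of counts takes in untested members too. The share of all counts on chemoreceptors went from 0.195, 0.187 and 0.175% to 0.0746, 0.0891 and 0.0806%, again with an exact permutation p = 0.1 and no overlap. The 3 F-box families and these 4 families together had 2657 members, of which 625 were tested, 115 were lower and 4 higher. The 7 families made up 4.58% of tested genes and 11.5% of the lower genes.

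Within these families nhr-146 (WBGene00045255, chrIV:1626973-1630756) had 101, 168 and 101 RPM across the wild-type inputs against 7.86, 7.95 and 7.27 RPM across the simr-1 inputs, a log2 change of -3.92 ± 0.19 (SE, adjusted p = 2.1e-05). The chemoreceptor pseudogene srh-9 went from 19.4, 12.1 and 23.8 RPM to 2.23, 2.01 and 0.878 RPM, or -3.36 ± 0.42 on the log2 scale (SE, adjusted p = 0.00094). The levels of bath-28 were 135, 90.7 and 125 RPM and 28.6, 31.7 and 25.3 RPM, with a log2 fold change of -1.99 ± 0.20 (SE, adjusted p = 0.00036). No library of one group lay within the range of the other for these 3 genes. One wild-type library stood apart for nhr-64, where the wild-type inputs had 18.2, 73.8 and 13.4 RPM and the simr-1 inputs 4.85, 2.86 and 3.26 RPM. Its log2 fold change of -3.13 ± 0.62 (SE, adjusted p = 0.01) ranged from -3.56 to -2.11 when each library was left out in turn. The plot of family members shows the families' distributions beside that of all tested genes.

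**Figure D3:**
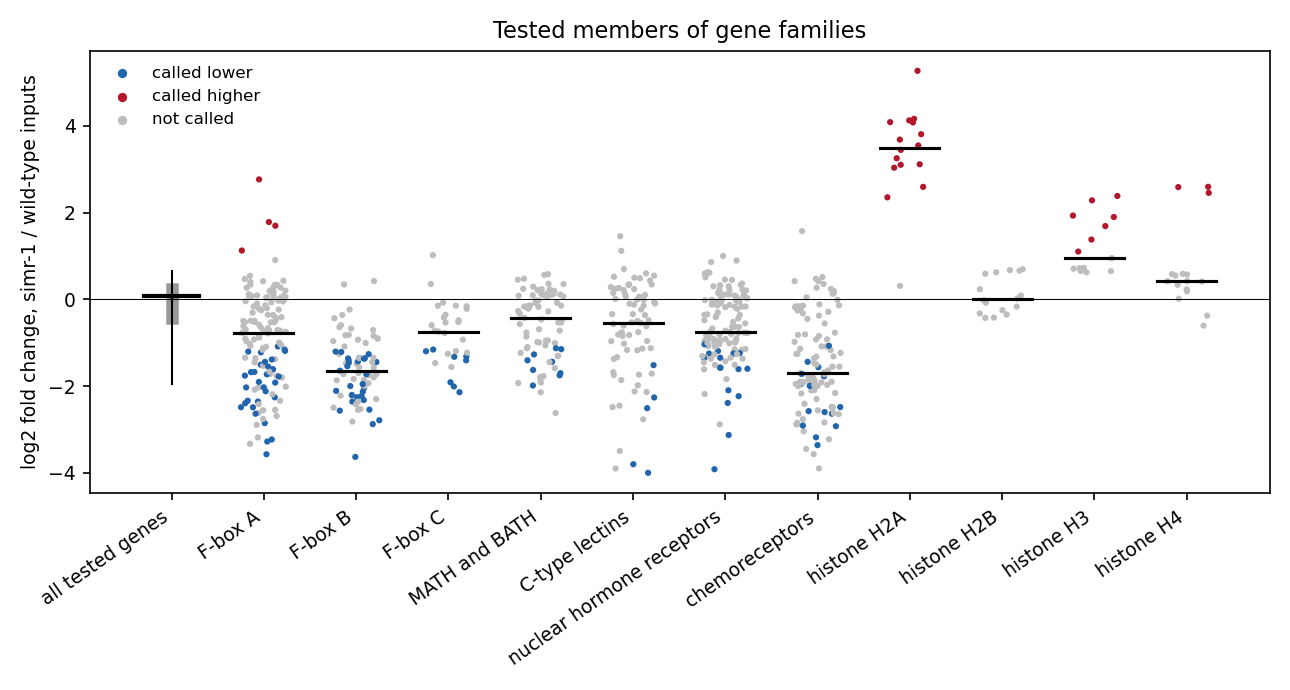
Log2 fold change of each tested member of 7 gene families and 4 core histone types in simr-1 against wild-type inputs (points, blue for called lower, red for called higher, grey for not called), with medians as horizontal bars. The box on the left spans the middle 50% of all tested genes and its line the middle 90%, and the fbxb and chemoreceptor medians of -1.64 and -1.70 lie below that of 0.07.

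Of 29 UDP-glycosyltransferase genes tested 3 (10.3%) were lower and 0 higher, beside 7.34% and 1.06% of all genes. Their share of all counts was 0.0660, 0.0460 and 0.0601% in the wild-type inputs and 0.0278, 0.0383 and 0.0321% in the simr-1 inputs, with no overlap (exact permutation p = 0.1, adjusted p = 0.323). Of 33 cytochrome P450 genes 1 (3.03%) was lower and 0 higher, and of 66 cuticle collagens 1 (1.52%) was lower and 2 (3.03%) higher. All 3 ugt calls were sensitive to single libraries, as ugt-40, ugt-29 and ugt-31 had adjusted p of 0.0851, 0.0707 and 0.0555 without simr-1 replicate 1. The collagen col-111 rose from 199.7, 72.99 and 183 RPM to 517, 768 and 592 RPM, a log2 change of 2.07 ± 0.40 (SE, adjusted p = 0.0085), but it shares exon sequence with psr-1, so its counts are partly shared. Major sperm protein genes, ribosomal protein genes, proteasome subunits, vitellogenins, tubulins, eIF3 subunits and the mitochondrial genome had 0 lower and 0 higher genes in edgeR. DESeq2 called 1 of them, a ribosomal protein gene, as higher. The major sperm protein genes together held 0.00560 to 0.00911% of counts in the wild-type inputs, so most could not reach the 10 RPM of a call. Of 32 tested, 2 were below 0, the median log2 fold change was 0.50, and 0 passed the adjusted p at any level. At an unadjusted p under 0.05 the counts above 0 were 14 of 33 proteasome genes, 7 of 36 mitochondrial genes and 6 of 84 ribosomal protein genes, beside 8.33% of all tested genes. None of these 3 lists had such a gene below 0, where 20.4% of all tested genes were.

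By type of gene, pseudogenes were lower most often. Of 695 pseudogenes tested, 104 (15.0%) were lower and 11 higher, with a median log2 fold change of -0.43. Of 11297 protein-coding genes 869 (7.69%) were lower. The small RNAs on 503 tRNA genes and 21 rRNA genes gave 0 calls in either direction by edgeR or DESeq2, and 2 and 3 tRNA genes had an unadjusted p under 0.05 below and above 0. MicroRNAs, piRNAs and transposons were not analysed here.

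The lower genes lay toward chromosome ends and on the X chromosome. Each chromosome was divided into 3 segments of equal length. On the 5 autosomes 627 of 7342 tested genes (8.54%) were lower in the outer segments and 166 of 4457 (3.72%) in the middle one. The same order held on each chromosome, and on the X chromosome the shares were 13.5% and 6.95%. Across whole chromosomes the share was 11.5% for X (208 of 1807), 8.53% for V, 7.51% for II, 6.67% for I, 5.64% for III and 5.21% for IV. The part of all counts that fell on X-linked genes was 11.7, 9.63 and 10.0% in the wild-type inputs and 7.83, 8.99 and 8.37% in the simr-1 inputs. The groups did not overlap. These are descriptions, as neighbouring genes and gene families are not independent.

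**Figure D4:**
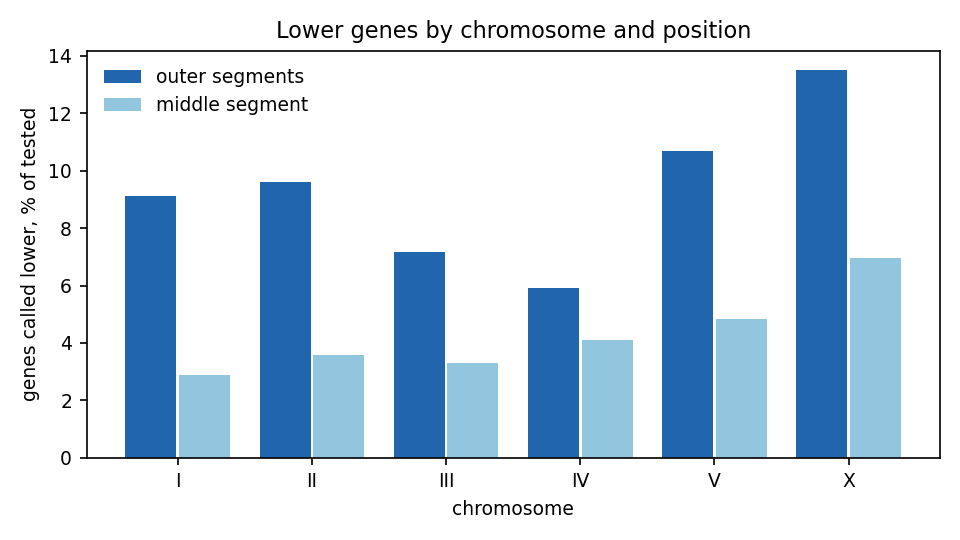
Genes called lower as a percentage of tested genes (bars) in the 2 outer segments and the middle segment of each chromosome, each segment 1 of 3 equal lengths. The outer bar is the taller on all 6 chromosomes, with 13.5% against 6.95% on X.

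Lower genes also clustered locally. In windows of 100 kb, chosen by rank after the values were seen, the window with most lower genes was on chromosome V from 16900001 to 17000000, where 12 of 24 tested genes were lower and 2 higher. It holds fbxa-110, fbxa-204, fbxa-205, fbxa-112, fbxa-111 and fbxa-90 with clec-237 and clec-238. The lectin gene clec-238 (chrV:16952127-16953507) went from 47.0, 54.4 and 56.4 RPM to 3.20, 3.92 and 2.26 RPM, or -3.999 ± 0.20 on the log2 scale (SE, adjusted p = 2.1e-05). The gene fbxa-90 went from 28.9, 27.3 and 24.8 RPM to 1.94, 2.54 and 2.01 RPM, with a log2 fold change of -3.57 ± 0.18 (SE, adjusted p = 2.2e-05). Both were lower in every simr-1 library. The E2F-like transcription factor gene efl-1, which lies between them, had 49.9, 51.5 and 49.5 RPM and 57.4, 56.7 and 52.8 RPM, and its groups did not overlap but its log2 fold change of 0.21 ± 0.10 (SE, adjusted p = 0.2) was not called. In the same window the pseudogene Y102A5C.6 (chrV:16929167-16930063) rose from 99.0, 97.2 and 62.4 RPM to 291, 285 and 279 RPM, a log2 change of 1.80 ± 0.16 (SE, adjusted p = 0.0002). Losses and gains lay within the same window. Of 1004 windows with a tested gene, 546 held at least 1 lower gene, 24 held at least 5, and 108 held at least 1 higher gene.

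Among the gains, histones formed the largest named group. Core histones are made in large amounts when DNA is replicated, from clustered multicopy genes. Of 72 his genes tested 26 were higher and 0 lower, beside 1.06% higher among all tested genes, and the median log2 fold change of the 72 was 0.65. At any fold or level 36 passed the adjusted p above 0. The share of all counts on histone genes was 0.325, 0.282 and 0.307% in the wild-type inputs and 0.523, 0.626 and 0.580% in the simr-1 inputs, with no overlap between groups (exact permutation p = 0.1, adjusted p = 0.323).

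The gain differed by histone type, a division by coding length that was made after the values were seen. Of 16 H2A genes 15 were higher, with a median log2 fold change of 3.50. The summed H2A level was 193, 199.9 and 200.1 RPM across the wild-type inputs against 1554, 2020.4 and 1939 RPM across the simr-1 inputs, a 9.30-fold ratio of the means. Of 16 H2B genes 0 were higher, with a median of -0.00 and a ratio of 1.27. Of 15 H3 genes 7 were higher, with a ratio of 2.38, and of 16 H4 genes 3 were higher, with a ratio of 1.58. None of the 6 H3 variant genes, his-69 to his-74, was called. The remaining 3 his genes fitted none of these lengths, and 1 of them, his-57, was higher. They include the linker histone gene his-24, which held most of the histone counts in the wild-type inputs. It had 2042, 1609.9 and 1854 RPM across the wild-type inputs against 1994, 2609.8 and 2130.0 RPM across the simr-1 inputs, groups that overlapped, or 0.34 ± 0.19 on the log2 scale (SE, adjusted p = 0.3). The H2A gene without a call was his-35, with 52.7, 61.8 and 55.8 RPM across the wild-type inputs against 59.6, 73.6 and 68.2 RPM across the simr-1 inputs and a log2 fold change of 0.31 ± 0.12 (SE, adjusted p = 0.13). It also had the highest wild-type level of the H2A genes.

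The single largest histone rise was the H2A gene his-61 (WBGene00001935, chrIV:7485733-7486254), from 13.7, 11.06 and 11.7 RPM across the wild-type inputs to 362, 528 and 460.1 RPM across the simr-1 inputs. Every simr-1 library was over 20-fold above every wild-type library, with a log2 fold change of 5.27 ± 0.22 (SE, adjusted p = 1.8e-05). The H2A genes his-51, his-53 and his-19 on chromosome V had near-equal values. In his-51 the levels were 6.38, 7.56 and 5.41 RPM and 96.8, 115 and 118.6 RPM, a log2 change of 4.16 ± 0.15 (SE, adjusted p = 1.8e-05). Small RNAs can match more than 1 copy of a near-identical gene. How far these H2A genes share small RNAs was not tested, so the number of higher H2A genes may not be a number of independent loci. Among H4 genes his-10 rose from 13.7, 11.9 and 14.3 RPM to 68.5, 87.1 and 75.2 RPM, or 2.60 ± 0.16 on the log2 scale (SE, adjusted p = 4.4e-05). For the H3 gene his-32 the levels were 7.62, 8.24 and 8.12 RPM and 33.9, 43.6 and 42.0 RPM, with a log2 fold change of 2.38 ± 0.16 (SE, adjusted p = 5.9e-05). In all 4 of these genes the groups were far apart.

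**Figure D5:**
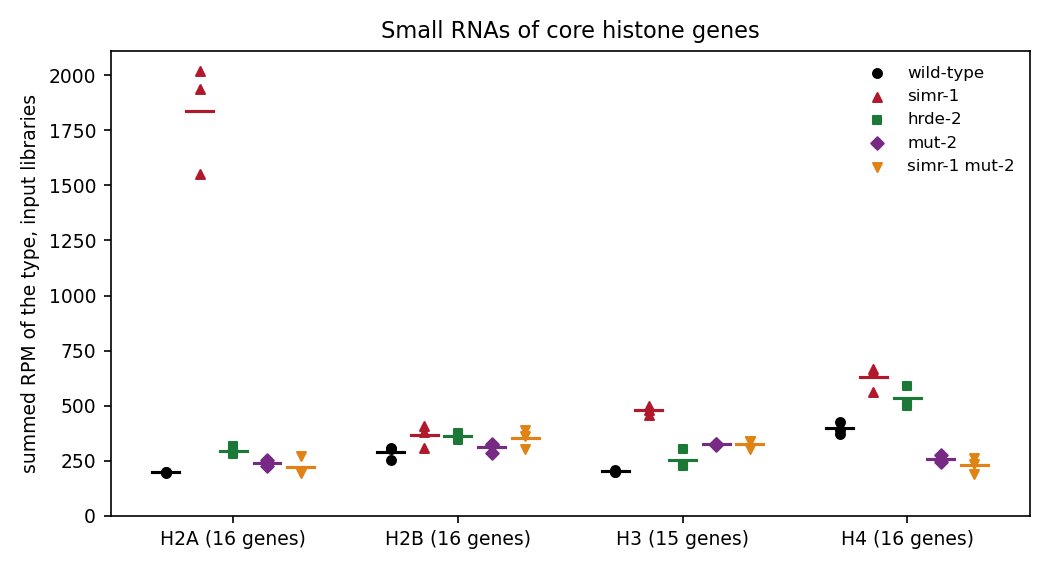
Summed RPM of the genes of each core histone type (y axis, from 0) in the input libraries of 5 genotypes, with each library as a point and the mean of 3 libraries as a bar. The simr-1 inputs lie between 1554 and 2020.4 RPM for H2A, and the H2A values of the other genotypes lie at or below 316 RPM.

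Many of the higher histone genes lay in histone gene clusters, described here in windows ranked on their called genes. The largest histone rise, his-61 on chromosome IV, lies outside the windows named here. Shares of his genes called inside and outside clusters were not compared. The chromosome II window from 13800001 to 13900000 held 12 higher and 0 lower genes of 31 tested, with his-9, his-10, his-12, his-13, his-14, his-16, his-25, his-26, his-42 and his-43 among the higher ones. The H2B genes his-11, his-15 and his-44, which lie among them, were not called. The window also held ZK131.12 (chrII:13819547-13819596) and ZK131.13 (chrII:13822985-13823034), a pair of short noncoding RNA genes between histone genes. ZK131.12 rose from 2.16, 2.03 and 1.95 RPM to 40.2, 66.3 and 50.7 RPM, a log2 change of 4.73 ± 0.23 (SE, adjusted p = 2.1e-05). ZK131.13 rose from 1.54, 1.58 and 3.01 RPM to 41.2, 62.0 and 47.6 RPM, or 4.72 ± 0.30 on the log2 scale (SE, adjusted p = 4.9e-05). The wild-type values of both were low, in libraries where 3 counts stand for 0.309 to 0.451 RPM. On chromosome V the window from 8800001 to 8900000 held 6 higher and 0 lower genes of 26 tested, among them his-19, his-21, his-51 and his-53.

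Outside the histones, the largest rise in the table was moc-2 (WBGene00003385, chrV:6502369-6504181), which is named for molybdenum cofactor synthesis. It stood at 6.18, 3.56 and 6.76 RPM across the wild-type inputs against 250.4, 319.5 and 245 RPM across the simr-1 inputs, with a log2 fold change of 5.68 ± 0.29 (SE, adjusted p = 2.2e-05). It overlaps W01A11.1 on the other strand, which had 11.4, 15.5 and 10.2 RPM and 18.3, 21.6 and 21.4 RPM and stayed under the 2-fold threshold, at 0.80 ± 0.17 (SE, adjusted p = 0.012) on the log2 scale. The gene dyf-17 (chrV:19127530-19130938), named for a dye-filling defect of sensory neurons, rose from 12.357, 11.06 and 10.1 RPM to 198, 424 and 368 RPM, a log2 change of 4.95 ± 0.32 (SE, adjusted p = 4.9e-05). The cadherin gene cdh-9 rose from 1.44, 0.452 and 0.601 RPM to 17.5, 31.7 and 22.4 RPM, or 4.84 ± 0.42 on the log2 scale (SE, adjusted p = 0.00019). For each of these 3 genes the lowest simr-1 library exceeded the highest wild-type library by 10-fold or more. The wild-type values of cdh-9 in replicates 2 and 3 lay near the floor, as 3 counts stand for 0.339 and 0.451 RPM there, so its fold is uncertain. Several other genes with gains above 8-fold were picked after their values were seen. They included dyf-3, a gene of the sensory cilium, with 23.5, 37.6 and 20.4 RPM and 326, 511 and 397 RPM and a log2 fold change of 4.003 ± 0.25 (SE, adjusted p = 4.5e-05). They also included vps-50, a gene of vesicle sorting, with 22.96, 30.6 and 23.6 RPM and 407, 296 and 248 RPM (3.69 on the log2 scale). The talin gene tln-1 had 106, 92.2 and 77.9 RPM and 718, 927 and 752 RPM (3.19 on the log2 scale). The groups were apart in all of them. Of 49 genes with cilium names (a list also drawn up after values were seen) 23 were tested, with 3 higher, 1 lower and a median of -0.10.

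One pair of overlapping genes moved in opposite directions. K11D2.1 (chrI:12497467-12505010) rose from 53.8, 29.01 and 43.1 RPM to 739, 953 and 778 RPM, with a log2 fold change of 4.34 ± 0.29 (SE, adjusted p = 5.9e-05). T27F6.8 (chrI:12497438-12499817), which overlaps it on the opposite strand, fell from 453, 410.5 and 443 RPM to 117, 143 and 101 RPM, a log2 change of -1.80 ± 0.17 (SE, adjusted p = 0.00024). It was the only pair of overlapping features with 1 higher and 1 lower member, against 18 pairs with both lower and 5 with both higher. The 5 most abundant higher genes were E01G4.5, Y54G11A.14, F59C12.4, T16G12.4 and W09H1.4. E01G4.5 rose from 2120.3, 2879.9 and 2138 RPM to 5176, 6543 and 5292 RPM, or 1.32 ± 0.18 on the log2 scale (SE, adjusted p = 0.0016). T16G12.4 rose from 312, 258 and 273 RPM to 1782, 2275 and 1837 RPM, with a log2 fold change of 2.86 ± 0.19 (SE, adjusted p = 5.2e-05). In both the groups did not overlap. Y54G11A.14, F59C12.4 and W09H1.4 rose by 1.17, 1.401 and 1.29 on the log2 scale. Y54G11A.14 reached 0.96 without simr-1 replicate 2, under the 2-fold threshold, and W09H1.4 had an adjusted p of 0.0624 without wild-type replicate 1 and 0.0523 without simr-1 replicate 3.

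Small RNAs on the genes of the RNAi machinery moved little. Of 76 genes in lists of Argonautes, mutator proteins, RNA-dependent RNA polymerase partners, germ granule proteins, SIMR granule proteins, nuclear RNAi factors and RNAi inheritance genes, 75 were tested, 2 were lower and 0 higher, with a median log2 fold change of 0.10. The lower ones were simr-1 and meg-4, a gene of the disordered MEG proteins that organize P granules. The meg-4 gene went from 77.3, 59.8 and 84.6 RPM to 27.7, 28.5 and 25.1 RPM, a log2 change of -1.399 ± 0.19 (SE, adjusted p = 0.0013). The groups were clearly apart. Smaller shifts that passed the adjusted p but not the fold were seen for the Argonaute gene wago-2, annotated as a pseudogene (-0.71 ± 0.14 (SE, adjusted p = 0.01)), for rde-11, which acts in amplification of the RNAi response (-0.82 ± 0.14 (SE, adjusted p = 0.0051)), and for the P granule gene pgl-2 (0.42 ± 0.11 (SE, adjusted p = 0.029)). The 10 mutator genes ranged from 0.07 to 0.28 and the 7 nuclear RNAi genes from -0.16 to 0.26, and none of these passed the adjusted p.

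Marker lists of tissues had 0 calls by edgeR or DESeq2, and 1 gene, a somatic marker, had an unadjusted p under 0.05. Of 13 spermatogenic markers 13 were tested, with 1 below 0 and a median log2 fold change of 0.59. They held 0.00971 to 0.0132% of counts in the wild-type inputs and 0.0109 to 0.0151% in the simr-1 inputs. At such levels a marker can lie under the 10 RPM of a call, so the lack of calls does not show a lack of change. The 13 oogenic markers had a median of 0.24, with 0.126 to 0.169% of counts in the wild-type inputs and 0.135 to 0.181% in the simr-1 inputs. Of 11 somatic markers 9 were tested, with a median of 0.12 and 0.0795 to 0.107% of counts in the wild-type inputs and 0.0572 to 0.137% in the simr-1 inputs. The intestinal gene elt-2 and the neuronal gene rgef-1 had too few counts to be tested. The groups overlapped for each list's share. The muscle genes myo-3, unc-54 and unc-15 were lowest in replicate 2 of both genotypes. The part of these lists in the calls was not tested.

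Many lower genes were in the mut-2-dependent class. Dependence on mut-2 was taken from libraries the comparison does not use, as a call of lower in the mut-2; hrde-2 inputs against the hrde-2 inputs, which 15.8% of genes tested there met. Genes were named mut-2-independent when that log2 fold change was at least -0.5, and both classes needed 10 RPM in the hrde-2 inputs. Of 2059 tested mut-2-dependent genes 550 (26.7%) were lower and 94 (4.57%) higher in simr-1, with a median log2 fold change of -0.33. Of 4800 mut-2-independent genes 19 (0.396%) were lower and 15 (0.312%) higher, with a median of 0.17. The 6783 other genes met neither rule or had under 10 RPM in the hrde-2 inputs, and 432 of them were lower and 36 higher. Dependent genes made up 54.9% of the lower and 64.8% of the higher genes, and 2059 of the 13642 tested genes were in the dependent class. Lower genes could miss both classes for lack of small RNAs in the hrde-2 inputs. Of the 1001, 598 were lower and 27 higher in hrde-2 than in wild-type inputs. The shares of the lower and the higher genes are therefore not set against each other. With the class taken from mut-2 against wild-type inputs, which shares controls with the comparison, 992 of the 1001 lower genes were dependent. The share of all tested genes in that class is not given here, so this count cannot be set against a background. The dependent class by the first definition held 53.3, 49.4 and 48.4% of counts in the wild-type inputs and 41.6, 53.1 and 44.4% in the simr-1 inputs, and these groups overlapped (exact permutation p = 0.3).

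The effect of simr-1 was also measured where mut-2 was already lost, in libraries independent of the first comparison. In simr-1 mut-2 against mut-2 inputs, 385 of 11441 tested genes (3.37%) were lower and 186 (1.63%) higher. Which direction was more frequent depended on the scaling. With library size alone in place of TMM, 286 genes were lower and 429 higher, and the median of all genes moved by 0.30 on the log2 scale. Of the 1001 genes lower in simr-1, 602 had enough counts to be tested there. Testing asked for 10 counts in 3 of the 6 libraries, which the mut-2 inputs alone can meet. The mut-2 inputs held 6093746 to 8137188 counts on genes and the simr-1 mut-2 inputs 4275760 to 6913018. The set of tested genes can therefore lean toward falls. Of these 602 genes, 72 were lower again, 2 were higher, and 88.2% had a log2 fold change below 0. Their median was -1.05 against -0.00 for all genes. With library size alone 61 were lower, 5 were higher and 80.6% were below 0, with a median of -0.78 against 0.30. Among them F22H10.5, the most abundant of the lower genes in the wild-type inputs, went from 134, 131 and 130.1 RPM in the mut-2 inputs to 16.3, 17.6 and 14.3 RPM across the simr-1 mut-2 inputs, or -3.32 ± 0.12 on the log2 scale (SE, adjusted p = 2.2e-06). For timm-17B.2 the levels were 504, 524 and 504 RPM and 214, 302 and 288 RPM, with a log2 fold change of -1.24 ± 0.11 (SE, adjusted p = 0.00022). Both fell in every library, and the groups did not overlap. The 2 mut-2 alleles differ between these strains, so allele and simr-1 cannot be told apart here. The counts over all genes in this background rested on single libraries. The 385 lower genes became 626 without simr-1 mut-2 replicate 1, and the 186 higher genes became 57, 66 and 110 without mut-2 replicate 1, mut-2 replicate 3 and simr-1 mut-2 replicate 3.

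Few of the gains were called in the mut-2 background. Of the 145 higher genes 124 passed the same filter and were tested there, with 1 higher, 4 lower and a median log2 fold change of -0.36. All 26 histone genes were tested, with 0 higher and 0 lower by edgeR or DESeq2, 25 below 0, 5 with an unadjusted p under 0.05 (all below 0) and a median of -0.34. With library size alone 4 of the 124 genes were higher and 4 lower, and 16 of the 26 histone genes were below 0, with medians of -0.07 and -0.06 against 0.30 for all genes. The summed H2A level was 244, 251 and 226 RPM in the mut-2 inputs and 269, 199.3 and 192.2 RPM across the simr-1 mut-2 inputs, groups that overlapped. The gene his-61 had 26.4, 28.4 and 24.7 RPM in the mut-2 inputs and 29.8, 21.5 and 23.6 RPM across the simr-1 mut-2 inputs. Over the 12 libraries the test of the difference between the effects gave an adjusted p of at most 0.05 for 1075 of 14444 genes tested (7.44%). That held for 117 of the 145 higher genes, all with a smaller or negative change in mut-2, and for all 26 histone genes. It held for 249 of the 1001 lower genes. In mut-2 the change was less negative or more positive for 186 of them and more negative for 63. The 186 include genes that did not fall in mut-2, such as bath-28 at a log2 fold change of 0.09. A gene with few counts left in mut-2 can fall little further, such as M162.15 at a mean of 0.601 RPM in the mut-2 inputs. How many of the 186 genes stood at such levels was not counted. The higher and lower genes were chosen on libraries that enter this test, so these counts are not independent of that choice.

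Values in the hrde-2 inputs stand beside those of simr-1, with the same wild-type inputs as controls, so the 2 comparisons are not independent. Of all tested genes 5.86% were lower and 2.55% higher in hrde-2. Of the 1001 genes lower in simr-1 598 were lower and 27 higher in hrde-2, and of the 145 higher genes 46 were higher and 17 lower. Single genes differed. The hrde-2 inputs had 18.6, 19.4 and 17.1 RPM for his-61 and 8.04, 3.58 and 2.89 RPM for moc-2, far under their simr-1 levels, but 392, 363 and 371 RPM for dyf-3, which lies within its simr-1 range. The summed H2A level was 316, 289 and 279 RPM in the hrde-2 inputs. These values lay above the 193, 199.9 and 200.1 RPM of the wild-type inputs and far under those of the simr-1 inputs. Of the 26 histone genes higher in simr-1, 6 (23.1%) were higher and 0 lower in hrde-2, with a median log2 fold change of 0.66. For bath-28, which fell in simr-1, the hrde-2 inputs had 514, 524 and 538 RPM, all above the wild-type inputs, a log2 change of 2.31 ± 0.20 (SE, adjusted p = 0.00014). For Y102A5C.6, which rose in simr-1, they had 14.9, 15.6 and 16.6 RPM, all below the wild-type inputs. In the HRDE-1 immunoprecipitates, 16.3% of tested genes were lower and 24.1% higher in simr-1 against wild-type. These libraries came from the same lysates, and 996 of the 1001 input lower genes were lower and 0 higher, and 66 of the 145 higher genes were higher and 1 lower.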

How the data were processed

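Estimated counts per gene were deposited, with 1 table per library. Per the labels and the study's methods, the authors removed adapters, kept small RNAs by size, aligned them with Bowtie2 2.5.0 and counted them with featureCounts of Subread 2.0.1 on WormBase WS258 exons, on both strands. A read over several features was split between them, so 10.5% of non-zero values were not whole, and 26.6% of features share an exon base with another. These expected counts were rounded here. The header of one wild-type table names replicate 1 where its label says replicate 2, and the label was kept.

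RPM was computed over all counts on genes. Genes with at least 10 counts in 3 or more of the 6 libraries were tested with edgeR 4.0.16 (TMM, quasi-likelihood test, Benjamini-Hochberg) in R 4.3.3, with DESeq2 1.42.0 as an alternative. The method was tested on simulated data. Shares of counts were compared by exact permutation tests. Names and biotypes come from the Ensembl annotation of WBcel235 and from RefSeq, and 30911 of 31106 features matched. Named genes are the 10 largest falls and rises that do not overlap, the 5 most abundant of each, up to 3 called members per list, and the RNAi genes. Others are said in the text to have been picked later. The gene lists and the comparison itself were chosen with earlier results of these data known. Alternatives changed the normalization, the filters, the minimum level, the class definition and the libraries. No reference sequence was used here, so none is printed.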

Additional observations from a re-analysis of the deposited data

Results flagged for a closer look

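The effect of simr-1 in the mut-2 background (simr-1 mut-2 against mut-2 inputs) was compared with its effect in wild-type in 1 edgeR fit over 12 inputs. Of the 60 called genes that the text may name, 28 had an adjusted p of at most 0.05 for the difference between the effects, 12 of them lower and 16 higher in simr-1. Each value below is the log2 fold change in mut-2 minus that in wild-type. The genes were chosen on libraries that enter the test, and the mut-2 alleles differ between the strains.

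All 16 higher genes had a smaller or negative change in mut-2. The difference was -5.64 for his-61, -4.69 for his-51, -4.66 for his-53 and -4.40 for his-19 among the histones, and -7.11 for ZK131.12 and -5.98 for ZK131.13 beside them. It was -6.78 for cdh-9, -5.33 for dyf-17, -4.88 for moc-2, -4.46 for K11D2.1 and -2.81 for col-111. The abundant T16G12.4, F59C12.4, Y54G11A.14, W09H1.4 and E01G4.5 had differences of -3.56, -3.37, -2.96, -2.28 and -1.63. The mean in mut-2 inputs was 0.943 RPM for moc-2 and 0.670 RPM for cdh-9, while his-61 had 26.5 RPM in mut-2 and 24.98 RPM in simr-1 mut-2 inputs.

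Among the 12 lower genes the change was less negative or more positive in mut-2 for M162.15 (4.31), F16F9.4 (3.58), F37D6.4 (3.404), F58E1.13 (2.97), fbxa-90 (2.85), fbxb-98 (2.76), spe-47 (2.29) and bath-28 (2.05). The mean in mut-2 inputs was at most 3.16 RPM for the first 6 of these and was 4.09 RPM for spe-47 and 22.2 RPM for bath-28. Neither spe-47 nor bath-28 fell in mut-2, where their log2 fold changes were 1.12 and 0.09. The fall was stronger in mut-2 for F22H10.5 (-1.96), ugt-31 (-1.69), simr-1 (-1.36) and Y71A12B.18 (-1.33). Of the 28 genes, 9 had too few counts for a test within the mut-2 background alone.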

How the results depend on the processing

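The count of lower genes rests most on the level asked of the higher group. With a minimum of 1 RPM 1793 genes were lower and with 50 RPM 402, against 1001 at 10 RPM. The count of higher genes was 163 and 114 at these levels, against 145. Both counts stayed within 1.5 times under all other alternatives, with 915 to 1090 lower and 134 to 171 higher when each library was left out in turn. DESeq2 gave 1016 and 163, and leaving out features that share an exon gave 844 and 113. Deviations of same-numbered replicates had correlations of -0.29, -0.12 and 0.20, beside -0.26 to 0.32 for differently numbered ones. So few libraries cannot show whether the numbers pair the samples. With the replicate block 963 genes were lower and 145 higher, and of the named genes ugt-40 and ugt-31 lost their call (adjusted p of 0.0588 and 0.0574).

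In simr-1 mut-2 against mut-2 inputs, 385 genes were lower and 186 higher as reported, 286 lower and 429 higher with library size alone, 367 lower and 69 higher with the replicate block, and leaving out each library gave 57 to 240 higher and 300 to 626 lower. These alternatives, and all counts of list members under alternatives, were added after the data were seen. With the class taken from mut-2 against wild-type inputs, which shares the wild-type inputs, 992 of the lower genes were mut-2-dependent and 4 independent. No share of all tested genes stands beside these counts. The median of the dependent class was then -0.67. The median of all genes went from 0.07 to -0.0031 with library size alone. That of collagens changed sign, from -0.26 for all tested members to 0.31 for genes of at least 10 mean RPM. The difference in the share of counts on lincRNA genes was -0.273 percentage points in the main setting and 0.495 without structural RNAs in the total. Without single libraries it ranged from -0.553 to 0.158. The difference on tRNA genes was 0.345 in the main setting and ranged from -0.195 to 0.782 without single libraries. The value of hrde-1 ranged from -0.156 to 0.0308. The cause of these shifts was not tested. Of 769 values of the 60 called named genes 754 kept the call, 15 lost it and 0 changed sign, and 226 of 234 list counts stayed within 1.5 times. The p of a test on a share cannot go below 0.1 with 3 against 3 libraries.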
